A study of Rattus norvegicus with 8 samples.

Results

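The 8 retinal samples of this series were divided by their own content of retinal ganglion cell (RGC) transcripts, and not by their labels. The division was chosen by 4 genes known for RGCs, Pou4f2, Nefm, Nefl and Sncg. For each sample, the log2 processed signal of each gene was taken relative to its mean over the 8 samples, and the 4 values were averaged into a marker score. The 4 samples with the highest score are called the high channels and the 4 with the lowest score the low channels. The high channels were those labeled ONC1, ONC2, ONC3 and CTR2, and the low channels those labeled CTR1, CTR3, CTR4 and ONC4. This grouping departs from the labels and rests on 4 genes, which were left out of every count over genes that follows. Because measured values chose the groups, their differences are a description without any test.

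The retinas came from female Lister Hooded rats, 8 weeks old at surgery, and were taken 2 weeks later. In the ONC group (n = 4), the optic nerve of the right eye had been crushed behind the globe, and in the CTR group (n = 4) the same operation was done without closing the forceps. The methods describe individually profiled retinas, so the spread between samples of a label includes that between animals. RNA was labeled with Cy3 or Cy5 and 2 samples were hybridized to each of 4 arrays, so that a sample is a color channel of an array.

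The sources differ on which samples shared an array. By the labels, each array holds the CTR retina in Cy5 and the ONC retina in Cy3 of the same number, so a difference between labels is also one between dyes. The methods instead pair retinas of the same group, CTR1 with CTR2, CTR3 with CTR4, ONC1 with ONC2 and ONC3 with ONC4, with the former of each pair in Cy3. The marker score matched neither layout: arrays 1 and 3 held a high and a low channel, array 2 held only high channels, and array 4 only low channels. No channel was moved to another condition, and "the channel labeled ONC4" or "ONC4" means only the channel that carries this label. The high channels comprised 3 Cy3 channels and 1 Cy5 channel, and the low channels 3 Cy5 channels and 1 Cy3 channel.

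RGCs are the output neurons of the retina, and their axons form the optic nerve. Pou4f2 (Brn3b) is a transcription factor needed for RGC differentiation. Nefm and Nefl encode the medium and light neurofilament subunits that fill large axons, and Sncg encodes gamma-synuclein, abundant in RGC bodies and axons. Crush of the optic nerve cuts RGC axons, and injured RGCs are known to lose such transcripts, to switch on injury genes such as Atf3, and to die over the following weeks.

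Each gene of the score was read by a single oligonucleotide probe, and the beginning of each probe is shown because these probes decided the grouping. The sequences are the first 30 of 60 bases, 5′ to 3′, as deposited with the array files.
Pou4f2: gctctccaaagttctgagttctgtatatga
Nefm: ctcctcagtccttgggggaattcaaatgca
Nefl: tgggtagcataaccagcggctactctcaga
Sncg: ccaagagtggaggtgactagaaggcttcca
The array files place the probes on the rat build rn4. The full Pou4f2 probe lies at chr19:31392348-31392407 on the plus strand. The full Nefm probe lies at chr15:47698645-47698704 on the minus strand. The full Nefl probe lies at chr15:47638898-47638957 on the plus strand. The full Sncg probe lies at chr16:10026224-10026283 on the minus strand. The Nefm probe was spotted repeatedly and 9 of its spots carried no outlier mark, while the other probes had 1 spot each. The files do not say in which exon or untranslated region a probe lies, and no annotation of that build was used here.

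The score was 1.57 in ONC1, 1.69 in ONC2, 1.57 in ONC3 and 1.53 in CTR2. It was -1.61 in CTR1, -1.32 in CTR3, -1.57 in CTR4 and -1.87 in ONC4. The lowest high channel, CTR2, and the highest low channel, CTR3, were therefore 2.85 apart on the log2 scale, against a range of 0.17 within the high and 0.55 within the low channels. The log2 processed signal of Pou4f2 was 9.86, 9.94, 9.81 and 9.63 in ONC1, ONC2, ONC3 and CTR2. It was 5.49, 5.71, 5.84 and 5.57 in CTR1, CTR3, CTR4 and ONC4, and the other genes of the score fell into the same groups. In Cy3 over Cy5, the log2 ratio of Pou4f2 was 4.38 and 4.11 on arrays 1 and 3, but 0.31 and -0.27 on arrays 2 and 4. In whole retina, fewer RGCs and less of these transcripts per RGC cannot be told apart.

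**Figure D1:**
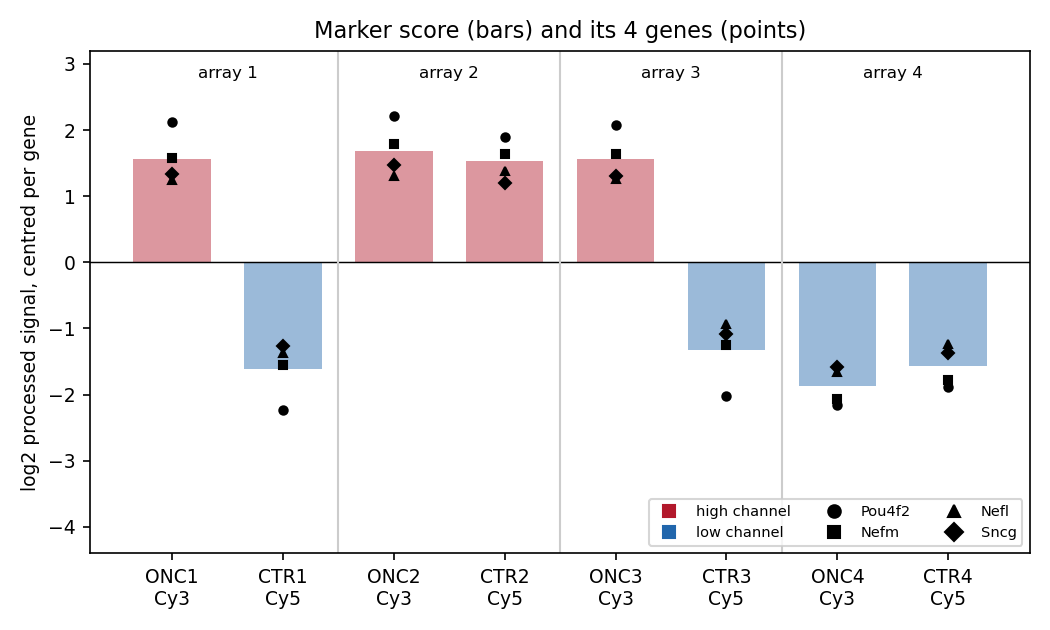
Marker score of each channel (bars) and the 4 genes behind it (points), as log2 processed signal less the mean of the gene over the 8 channels; channels are placed by array as labeled, red bars are the high and blue bars the low channels. The high channels lie between 1.53 and 1.69 and the low channels between -1.87 and -1.32.

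The description over all other genes used log2 intensities after background subtraction, normalization within each array by a smooth curve of ratio on brightness (loess), and subtraction of the median of the channel. A gene was called apart when all 4 high channels lay above, or all below, all 4 low channels and the means differed at least 2-fold, or 1 on the log2 scale. Of 16303 genes, 75 were apart (0.46%), 37 higher in the high channels (0.227%) and 38 lower (0.233%). Without the requirement of 2-fold, 653 genes lay higher (4.01%) and 1526 lower (9.36%) with no overlap, while the median difference over all genes was -0.08. The balance of directions depended on the scaling: with median scaling in place of loess 41 genes were higher and 26 lower, and with Aquantile normalization between arrays 46 and 28. Without the 2-fold requirement, median scaling gave 616 higher and 881 lower with no overlap and Aquantile 890 and 1041, so the shares used below as background hold for the main scaling only. Leaving out the channel labeled CTR1 raised the number apart to 118, and without CTR2 or ONC4, the channels that differ from their label mates, it was 80 and 84.

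The score splits each dye unevenly, so the difference can be read within a dye, which under the labels is also within a condition. Within Cy3, the difference is the mean of ONC1, ONC2 and ONC3 less ONC4, and within Cy5 it is CTR2 less the mean of CTR1, CTR3 and CTR4. These comparisons have no channel in common, although ONC2 shares an array with CTR2 and ONC4 with CTR4. Of the 75 genes, 39 differed at least 2-fold within both dyes, 22 of them higher and 17 lower in the high channels. Among all 16303 genes, 60 differed at least 2-fold in the same direction within both dyes and 6 in opposite directions. Across genes, which are not independent replicates, the Pearson correlation of both differences was 0.50. A gene without overlap has the same sign in both by construction.

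**Figure D2:**
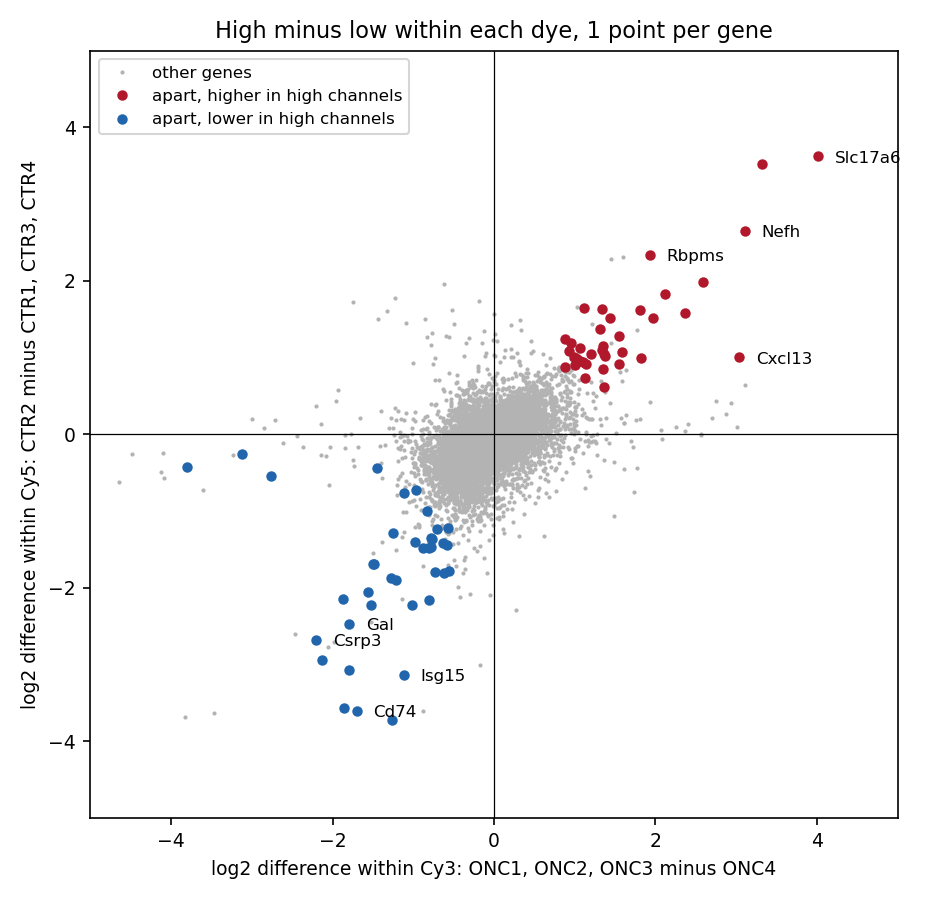
High minus low difference of each gene (log2) within Cy3 on the horizontal axis and within Cy5 on the vertical axis; colored points are the 75 genes apart, red higher and blue lower in the high channels, and gray points are the other genes. Slc17a6 lies at 4.01 and 3.62, and Cd74 at -1.70 and -3.61.

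The largest differences toward the high channels were those of Slc17a6, Nefh and Rbpms, all known from RGCs. This ranking covers named genes outside the score that passed the spot filter, which asks for signal in every channel. Nrn1 and Irx4, which did not pass it, are described below. Slc17a6, which encodes the vesicular glutamate transporter VGLUT2 used by RGCs, was 13.5-fold higher in the high channels. Its log2 level was 2.61, 2.58, 2.66 and 2.55 in ONC1, ONC2, ONC3 and CTR2, and -1.49, -0.93, -0.81 and -1.40 in CTR1, CTR3, CTR4 and ONC4. The high channels were thus nearly level, at 2.60 ± 0.05 (SD, n = 4), and the low channels more scattered, at -1.16 ± 0.33 (SD, n = 4). The difference was 4.10 within array 1, 3.60 within array 3, and 3.67 between arrays 2 and 4. An entry known only by the transcript identifier ENSRNOT00000070876, picked out after its value was seen, followed with a difference of 3.48.

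Nefh, the heavy neurofilament subunit, had a log2 level of 0.75, 0.21, 0.74 and 0.31 in ONC1, ONC2, ONC3 and CTR2. In CTR1, CTR3, CTR4 and ONC4 it was -2.65, -2.24, -2.13 and -2.54, a 7.42-fold difference. Prph, encoding the intermediate filament peripherin, was at 1.69 ± 0.04 (SD, n = 4) in the high and -0.42 ± 0.62 (SD, n = 4) in the low channels. Neurofilament and peripherin genes thus differed together with the subunits that entered the score. Rbpms encodes an RNA-binding protein used as a general RGC marker. It was 4.53-fold higher, with -1.57, -0.44, -0.54 and -0.73 in ONC1, ONC2, ONC3 and CTR2 against -3.65, -2.85, -2.72 and -2.78 in CTR1, CTR3, CTR4 and ONC4. ONC1 was the lowest of the high channels for this gene and CTR1, labeled as its array partner, the lowest of all. Thy1, a surface glycoprotein of RGCs, differed by 1.41, and the secreted protein gene Nell2 by 1.79.

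A list of RGC axon, surface and transmitter genes, written without the genes of the score, had 28 members, of which 24 passed the spot filter. Of these, 13 lay higher in the high channels with no overlap and none lower, and 10 were apart and higher, beside 4.01%, 9.36% and 0.227% of all genes. Their median difference was 0.71, with 0.83 within Cy3 and 0.68 within Cy5, beside -0.08 over all genes. By channel, the list median (each gene less its mean over channels) was 0.30, 0.35, 0.44 and 0.43 in ONC1, ONC2, ONC3 and CTR2. It was -0.50, -0.39, -0.22 and -0.51 in CTR1, CTR3, CTR4 and ONC4. Not every member followed, since 5 of the 24 had a difference below 0. Tubb3, the neuronal tubulin, differed by 0.94 but its groups overlapped: it was 1.80 in both CTR2 and CTR4, and 2.24 in ONC4 against 2.43 in ONC2. Its difference was 0.49 within Cy3, 0.47 within Cy5 and 0.09 between arrays 2 and 4. Tubb3 was instead higher in every ONC than in every CTR channel, at 2.24 to 2.92 against 1.02 to 1.80. The label difference was 1.16 (adjusted p = 0.0575 by limma).

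RGC transcription factors were less separated than the structural genes. Only 9 of 18 listed factors passed the filter, 1 of them higher with no overlap, Sox4 at 0.37, and 1 lower, Foxp2 at -0.23. With 4.01% and 9.36% of all genes in these classes, single members say little about the list. The median of the 9 was 0.36, with only 0.12 within Cy3 and 0.08 within Cy5, and 0.20 with normexp. CTR2, at -0.13, did not lie above the low channels, which ran from -0.20 to 0.05. Of the other factors listed, Pou4f1 and Eomes were not found by name, and the rest did not pass the filter. With normexp background correction and no filter, the difference was 3.21 for Irx4, 1.53 for Isl2 and 1.01 for Pou4f3, each with no overlap. Sox11, at -0.17 on the same scale and well above background in 3 channels of each group, overlapped, and Tbr1 was not well above background in any channel. Irx4 was marked well above background in 2 of 4 low channels, Isl2 in 3 and Pou4f3 in 1, against all 4 high channels for each. Nrn1, which encodes neuritin, a small surface protein of neurons, differed by 3.44 on that scale and was well above background in 3 low channels. It is on the list of RGC axon, surface and transmitter genes, whose other members that failed the filter overlapped. Rbpms2 was at -0.02, Chrnb3 at 0.17 and Kcnip2 at 0.04. The sizes for dim genes depend on the background correction. The filter, which asks for signal in every channel, removes dim genes from all counts, whether their groups overlap or not.

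Some genes of axonal excitability were also higher in the high channels. Of 20 genes for sodium and potassium channels and the axon initial segment, 16 passed the filter, 7 lay higher with no overlap (4.01% of all genes), none lower and 2 were below 0, with a median difference of 0.35. Scn2a, a pore-forming sodium channel subunit, was at 0.71 ± 0.14 (SD, n = 4) in the high and -0.88 ± 0.18 (SD, n = 4) in the low channels. The auxiliary subunit Scn4b differed by 1.64 and the pore-forming subunit Scn1a by 1.25. The potassium channel genes Kcnq3, Kcnc2 and Kcna1 differed by 0.90, 0.79 and 0.68. Of 17 axonal transport and microtubule genes, 4 lay higher and 1 lower with no overlap, beside 4.01% and 9.36% of all genes, with a median of 0.23. Tppp3, a tubulin polymerization-promoting protein, differed by 1.44, whereas Mapt (tau), Stmn3 and the dynein chain Dync1i1 differed by 0.34 to 0.37. Stmn4, a stathmin, ran the other way, at -0.65.

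Other genes among the 12 largest differences in this direction were less tied to RGCs. Gpx2, a glutathione peroxidase, was 3.84-fold higher, with CTR2 at -1.42 and ONC2 at -1.23 below ONC1 at -0.50 and ONC3 at -0.62. Tmem163, a zinc-binding membrane protein, differed by 1.78. Cxcl13, a chemokine, differed by 1.70, but by 1.28 with normexp and 2.39 in processed signals, and was well above background in only 3 of the low channels. Chosen after their values were seen, Opn4, the photopigment of intrinsically photosensitive RGCs, differed by 1.07, Syt2, a synaptotagmin, by 1.33 and Pvalb, the calcium buffer parvalbumin, by 1.0.

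**Figure D3:**
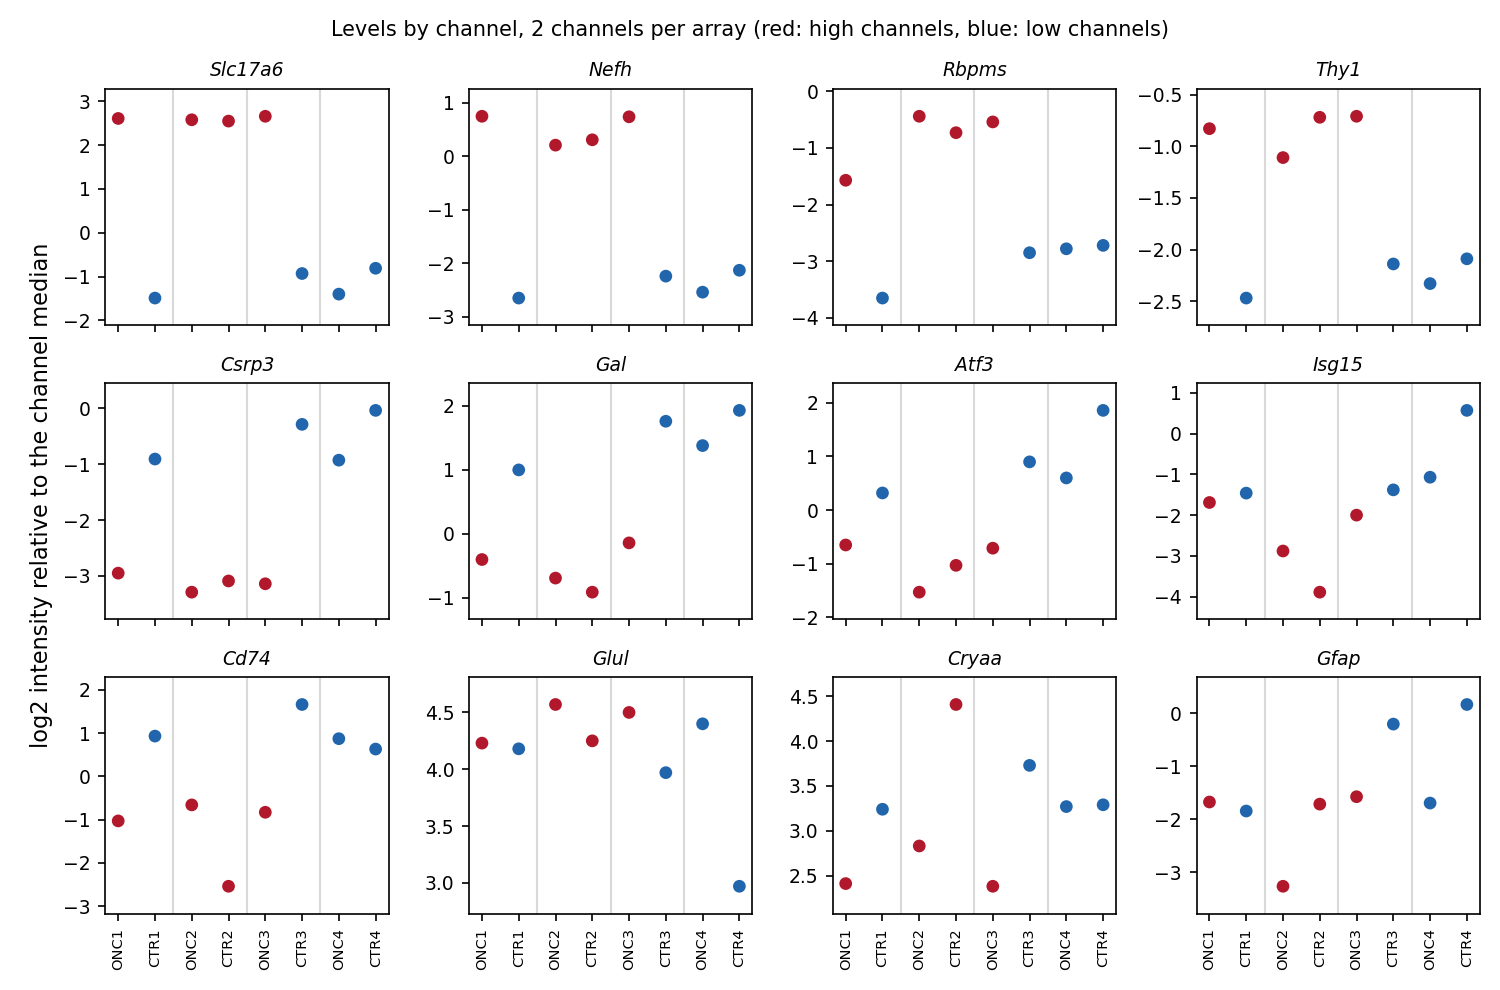
Log2 intensity of 12 genes relative to the median of each channel, with channels ordered by array as labeled and separated by vertical lines; red points are high and blue points low channels. Slc17a6, Nefh, Rbpms and Thy1 are higher and Csrp3, Gal, Atf3, Isg15 and Cd74 lower in all high channels, whereas Glul, Cryaa and Gfap overlap.

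The genes lower in the high channels included several known from injured neurons. The largest difference was that of Csrp3, a muscle LIM protein also found in injured neurons. Its log2 level was -2.95, -3.29, -3.14 and -3.09 in ONC1, ONC2, ONC3 and CTR2, and -0.91, -0.29, -0.04 and -0.93 in CTR1, CTR3, CTR4 and ONC4. The groups were separated by a gap of 2.02, and the low channels were on average 5.97-fold higher. Ucn, the neuropeptide urocortin, was 5.33-fold higher in the low channels, with -3.52 ± 0.46 (SD, n = 4) in the high and -1.11 ± 0.21 (SD, n = 4) in the low channels. Gal, the neuropeptide galanin, was at -0.40, -0.69, -0.14 and -0.91 in ONC1, ONC2, ONC3 and CTR2. It was at 1.0, 1.76, 1.93 and 1.38 in CTR1, CTR3, CTR4 and ONC4, a 4.15-fold difference. Every low channel thus held more galanin transcript than every high channel, whatever its label or dye.

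Atf3, a stress-induced transcription factor, was at -0.65, -1.53, -0.71 and -1.03 in ONC1, ONC2, ONC3 and CTR2. It was at 0.32, 0.90, 1.86 and 0.60 in CTR1, CTR3, CTR4 and ONC4, so that the low channels spanned more than the high ones. Ecel1, an endopeptidase gene induced by nerve injury, differed by -1.90, with -1.44 within array 1 and -1.61 within array 3. The list of axon injury response genes had 19 members, of which 13 passed the filter. These 13 had a difference below 0, 6 with no overlap and 5 of them apart, beside 9.36% and 0.233% of all genes, with a median of -0.57. Beside Gal, Ecel1 and Atf3, these were Tnfrsf12a, the receptor of the cytokine TWEAK, at -1.11 and Gadd45g, a stress gene, at -1.05. Sprr1a, a further injury gene, was well above background in all 4 low channels and in none of the high channels. Its mean level on unfiltered normexp values was -0.20 in the low channels and -2.26 in the high channels, where it was not well above background. The other 4 members that failed the filter did not share one direction on that scale. Nrn1, described above and also on this list, was higher in the high channels at 3.44, Hrk was at -0.47 with no overlap, and Sox11 at -0.17 and Bcl2l11 at -0.30 overlapped. Bcl2l11 was well above background in only 2 high channels and 1 low channel. Immediate early genes had no member without overlap among 11, beside 4.01% higher and 9.36% lower of all genes. With so few genes, this count does not set the list apart from that background. Their median was -0.05, but 0.01 with median scaling and 0.02 with Aquantile.

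Promoters of the injury and interferon genes were searched for known response elements. They were read from RefSeq (build GRCr8) as 250 bases before to 50 after the start of a gene. They were searched on both strands for the core of the interferon-stimulated response element (GAAA, any 2 bases, GAAA), for TGACGTCA (the cyclic AMP response element) and for TGANTCA (the AP-1 element, which TGACGTCA does not contain). Among 27457 promoters, 3.8% held the interferon element, 1.9% TGACGTCA and 7.3% TGANTCA. Of 8 injury response genes matched, none held the interferon element or TGACGTCA and 1 held TGANTCA. Of 11 interferon-stimulated genes matched, 7 held the interferon element, none TGACGTCA and 3 TGANTCA. Of the 12 largest lower genes 8 were matched, and Rsad2 held the interferon element and Ucn TGACGTCA. The 150 bases before the start are shown for Rsad2, Irf7 and Ifit3, interferon-stimulated genes with a match, and for Ucn, with the matches in capitals.
Rsad2: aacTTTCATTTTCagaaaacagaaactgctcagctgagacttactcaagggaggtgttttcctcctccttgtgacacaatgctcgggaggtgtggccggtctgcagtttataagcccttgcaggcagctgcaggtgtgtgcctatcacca
Irf7: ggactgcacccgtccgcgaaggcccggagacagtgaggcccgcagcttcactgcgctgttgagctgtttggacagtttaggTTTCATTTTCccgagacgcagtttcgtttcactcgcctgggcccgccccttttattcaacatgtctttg
Ifit3: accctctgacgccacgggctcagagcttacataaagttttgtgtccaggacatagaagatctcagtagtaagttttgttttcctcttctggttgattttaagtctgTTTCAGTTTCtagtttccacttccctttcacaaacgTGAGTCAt
Ucn: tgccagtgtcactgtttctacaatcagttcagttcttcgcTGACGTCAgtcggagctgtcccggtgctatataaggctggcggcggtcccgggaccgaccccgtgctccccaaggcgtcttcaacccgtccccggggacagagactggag
They lie at chr6:48788121-48788270 on the minus strand for Rsad2, chr1:205800024-205800173 on the minus strand for Irf7, chr1:241527176-241527325 on the plus strand for Ifit3 and chr6:30957936-30958085 on the plus strand for Ucn. A match of letters is a description and not evidence of binding. Isg15 and Usp18 were not matched to a promoter.

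Interferon-stimulated genes, which cells switch on during antiviral and inflammatory responses, had differences below 0. Of 20 listed, 15 passed the filter, all 15 had a difference below 0, 9 with no overlap and 4 apart, beside 9.36% and 0.233% of all genes, and the median was -0.67. Isg15, a ubiquitin-like modifier, was at -1.69, -2.88, -2.0 and -3.89 in ONC1, ONC2, ONC3 and CTR2. It was at -1.46, -1.38, 0.57 and -1.07 in CTR1, CTR3, CTR4 and ONC4. The groups were only 0.23 apart, and CTR2, the lowest, and CTR4, the highest, widened the mean difference of -1.78. Rsad2 (viperin) differed by -1.73, Mx1 by -1.23 and the protease gene Usp18 by -1.26. Irf7, a regulator of interferon genes, differed by -0.96 and Ifit3 by -0.68. These differences were smaller within arrays 1 and 3 than between arrays 2 and 4. They were -0.23 and -0.62 against -3.14 for Isg15, -0.58 and -0.58 against -1.94 for Usp18, and -0.34 and -0.16 against -1.11 for Ifit3. For Rsad2 they were -1.05 and -1.39 against -2.24, for Mx1 -0.94 and -0.97 against -1.49. For Irf7 they were -0.71 and -0.82 against -1.16. The part of the arrays in this was not tested. Ifi27l2b, named like an interferon-inducible gene but not on the list, was 3.75-fold higher in the low channels. For the list, the median difference was -0.39 within Cy3 and -0.98 within Cy5.

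Most antigen presentation genes differed in the same direction. Cd74 encodes the invariant chain of MHC class II and was 4.86-fold higher in the low channels. Its log2 level was 0.93, 1.66, 0.63 and 0.87 in CTR1, CTR3, CTR4 and ONC4 and -1.03, -0.66, -0.83 and -2.54 in ONC1, ONC2, ONC3 and CTR2. CTR2 was thus well below the other high channels, and the difference was -1.70 within Cy3 but -3.61 within Cy5. RT1-Da, a class II alpha chain, was at -3.10, -3.36, -3.07 and -4.67 in ONC1, ONC2, ONC3 and CTR2 and between -1.84 and -1.32 in the low channels. All 7 class II genes that passed the filter of 8 had a difference below 0, 4 with no overlap, with a median of -0.50. Of 9 class I and antigen processing genes, 8 were below 0, 5 with no overlap, with a median of -0.52, and over all genes 9.36% lay lower with no overlap. RT1-CE5 and RT1-A2, class I heavy chains, differed by -0.68 and -0.65, and B2m, the class I light chain, by -0.50.

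Microglial genes were on average lower in the high channels, each by less than 2-fold. All 16 listed genes passed the filter and all had a difference below 0, 10 with no overlap (9.36% of all genes), with a median of -0.49. The lysosomal membrane gene Laptm5 differed by -0.79, Aif1 (Iba1) by -0.72, the protease Ctss by -0.59 and the receptor Csf1r by -0.56. Cx3cr1, the fractalkine receptor of microglia, differed by -0.06 with overlapping groups. Of 16 complement genes that passed the filter of 29 listed, 15 were below 0, 5 with no overlap beside the same background, with a median of -0.55. C1qc, a chain of the initiating C1q complex, differed by -0.84, C2 by -0.76 and C4a by -0.59. Terminal components C5, C6, C8a, C8b and C9 did not pass the filter.

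Of 19 gliosis and acute phase genes, 18 were below 0, but only 4 showed no overlap (9.36% of all genes), with a median of -0.65. Fgf2, a growth factor raised in stressed Müller cells, differed by -1.37, with a gap of 0.06. Nes (nestin) differed by -0.85, Socs3, a feedback inhibitor of cytokine signaling, by -0.51, and the neurotrophic factor gene Cntf by -0.49. Within array 1, within array 3 and between arrays 2 and 4, Fgf2 differed by -0.12, -1.36 and -2.0. In the same order, Nes differed by -0.14, -0.70 and -1.29, Socs3 by -0.20, -0.30 and -0.76, and Cntf by -0.34, -0.49 and -0.57. Gfap, the filament of reactive glia, overlapped: it was -0.20 in CTR3 and 0.17 in CTR4 but -1.84 in CTR1 and -1.69 in ONC4, against -3.26 to -1.57 in the high channels.

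The low channels differed among themselves in the gliosis, complement and microglial lists. The median of the gliosis list was -0.18 in CTR1, 0.45 in CTR3, 0.79 in CTR4 and 0.00 in ONC4. That of complement was 0.07, 0.46, 0.79 and -0.13 in the same order, and that of microglial genes 0.20, 0.42, 0.49 and 0.00. In the high channels, the 3 lists lay between -0.36 and -0.11. For complement, the difference was -0.21 within Cy3 and -0.67 within Cy5, and for microglial genes -0.18 and -0.66. The microglial differences had the same sign as those of the interferon, MHC and complement lists, and their part in them was not tested. The summed log2 level of the microglial list was 5.16, 5.40, 5.52 and 5.10 in CTR1, CTR3, CTR4 and ONC4 and 4.83, 5.03, 4.79 and 4.78 in ONC1, ONC2, ONC3 and CTR2.

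**Figure D4:**
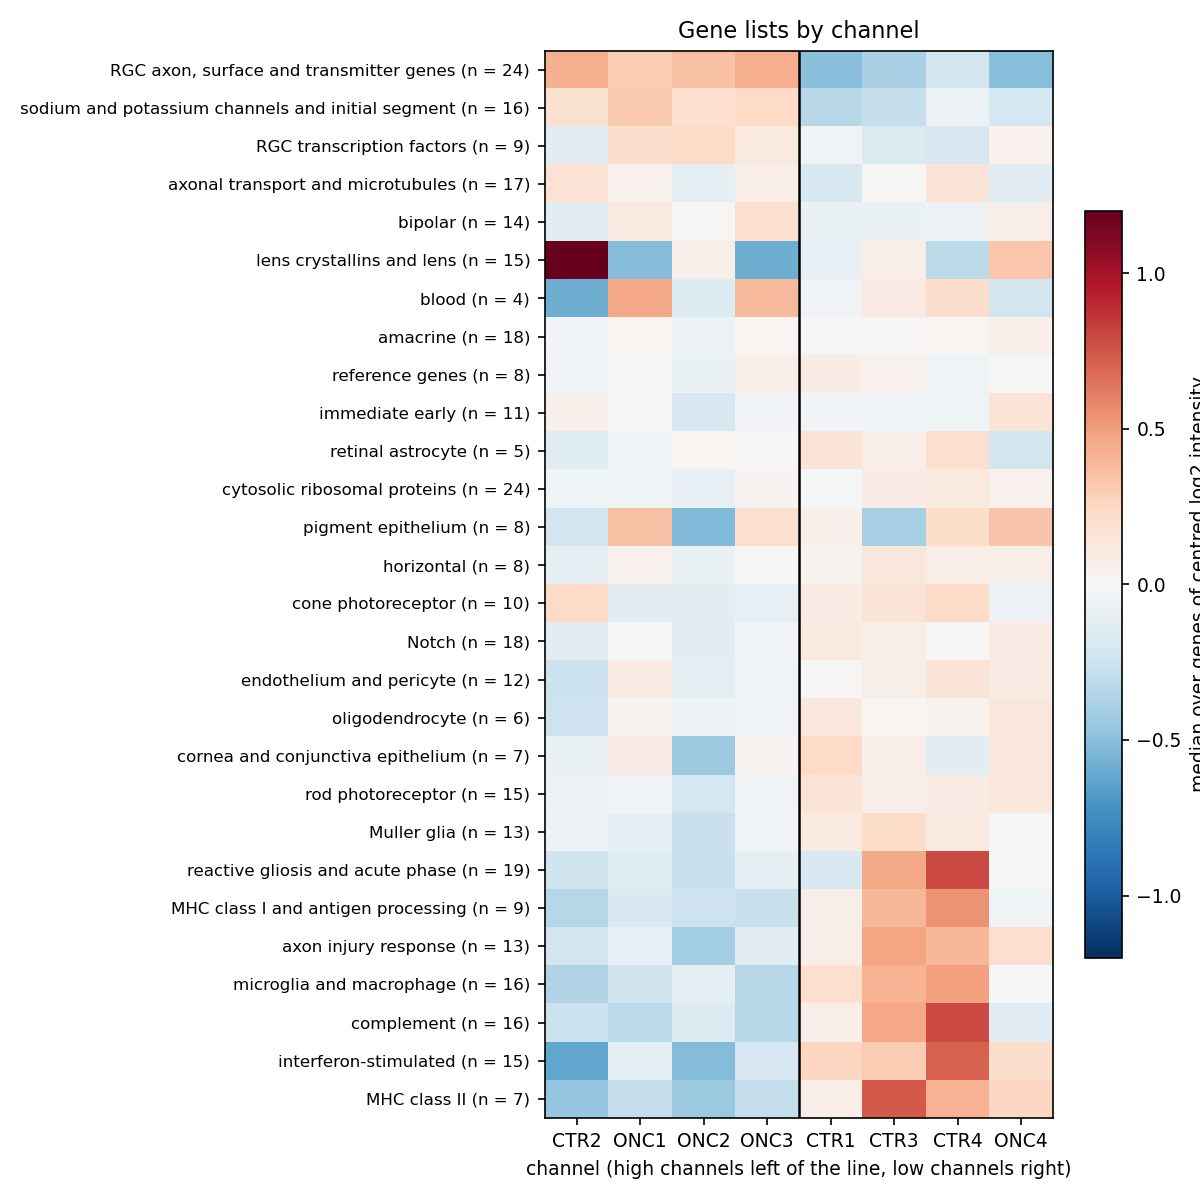
Median over the genes of each list of the log2 intensity less the mean of the gene over channels, by channel, on a color scale from -1.2 (blue) to 1.2 (red); n is the number of genes that passed the filter. High channels stand left of the line. The list of RGC axon, surface and transmitter genes ranges from 0.30 to 0.44 in the high and from -0.51 to -0.22 in the low channels.

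Lists of the other retinal neurons had medians between -0.21 and -0.01. The median was -0.06 over 18 amacrine genes and -0.01 over 14 bipolar genes (0.01 with Aquantile), and no bipolar gene lay without overlap. Calb2 (calretinin), listed for amacrine cells but also present in RGCs, was the only amacrine gene apart, at 1.01. Gad1 and Gad2, the enzymes that make GABA, differed by -0.33 and 0.03, and Prkca of bipolar cells by 0.10, all with overlap. Of 8 horizontal cell genes, 2 lay lower with no overlap and the median was -0.21. The median was -0.20 over 15 rod genes, 13 of them below 0 and 4 lower with no overlap, and -0.17 over 10 cone genes, 2 lower and 1 higher with no overlap. Among the 4 rod genes were Guca1b, an activator of guanylate cyclase, at -0.45, the rod arrestin Sag at -0.44 and the transducin subunit Gnat1 at -0.29. Over 13 Müller glia genes the median was -0.21, with 4 lower and 1 higher without overlap. The transcription factor Sox9 differed by -0.51 and the lipid carrier Apoe by -0.43, while Glul (glutamine synthetase) was at 0.51 with overlap. Over all genes, 4.01% lay higher and 9.36% lower with no overlap and the median was -0.08.

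Genes of cells around the neural retina were uneven between channels. Of 15 lens genes that passed the filter of 17, 14 were highest in CTR2, whose list median was 1.2, against 0.33 in ONC4, 0.08 in ONC2 and CTR3, and -0.10 or less in the others. The summed log2 level of the lens list was 8.22 in CTR2, 7.52 in ONC4, 7.32 in CTR3, 7.14 in ONC2, 6.96 in CTR4, 6.95 in CTR1, 6.59 in ONC3 and 6.56 in ONC1, with Cryab the brightest gene. The lens difference was -0.73 within Cy3 and 1.26 within Cy5, so the groups overlapped and the median was -0.03. Of the 6 genes with opposite differences in the dyes, 4 were lens genes, Cryba1, Crygb, Crygf and Lgsn. The part of lens transcripts in the other results was not tested.

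Pigment epithelium genes had a list median between -0.53 in ONC2 and 0.35 in ONC1, with 0.34 in ONC4 and -0.40 in CTR3, and a difference of -0.16 over 8 genes. Their summed level ran from 4.93 in ONC2 to 6.29 in CTR4, with Ttr the brightest. Best1 did not pass the filter, and Rpe65 differed by 0.54 with overlap. Of these genes 2 lay lower with no overlap (9.36% of all genes), Slc26a4 at -0.31 and Dct, an enzyme of melanin synthesis, at -0.86. Dct was -1.23 in CTR2 and -0.28 in ONC2 against 0.47 to 0.83 elsewhere. Blood genes had a median of 0.04 over 4 genes, with 0.46 in ONC1, 0.39 in ONC3 and -0.59 in CTR2, and a summed level from 3.56 in CTR2 to 4.49 in ONC3. The median was -0.19 over 7 cornea and conjunctiva genes and -0.19 over 6 oligodendrocyte genes, but 0.04 and 0.07 with median scaling without loess, so these lists had no settled direction. Krt13 and Mog did not pass the filter. Endothelial and pericyte genes had a median of -0.16, with Cldn5, a tight junction protein, at -0.29, and astrocyte genes of -0.04, with Pax2 not passing the filter.

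Lists of general processes served as a further background. The median was -0.11 over 24 cytosolic ribosomal protein genes, 22 of them below 0, and -0.01 over 8 reference genes. With a median of -0.08 over all genes, a count of members below 0 does not by itself set a list apart. With median scaling these medians were -0.27 and -0.11, and with Aquantile -0.06 and 0.03. No overlap was found for 4 of the 24 ribosomal protein genes, all lower (9.36% of all genes), such as Rpl13 at -0.33. Notch pathway genes had a median of -0.15 over 18 genes, of which 2 lay lower without overlap, a share near the 9.36% of all genes. A further list holds the genes most lowered after ONC in the published work, which were picked on these same samples. It has 50 entries, among them the 4 genes of the score, and 39 of the rest passed the filter. Of these, 37 lay higher in the high channels with no overlap (4.01% of all genes), 23 were apart (0.227% of all genes), and the median was 1.04. Of 46 genes from the list of the most raised genes, 11 lay lower with no overlap (9.36% of all genes). Of the 46, 5 were apart (0.233% of all genes), and the median was -0.41. The lowered list had a median of 0.57 to 0.6 in ONC1, ONC2 and ONC3 and -0.66 to -0.42 in CTR1, CTR3 and CTR4. By these labels it ran opposite to its name, whereas CTR2 at 0.41 and ONC4 at -0.54 went with it. The raised list, at -0.22 to -0.05 and 0.07 to 0.46 in the same channels, also ran opposite to its name. There, CTR2 was at -0.24 and ONC4 at 0.06. Both lists came from these samples and are no independent evidence of a direction.

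The first principal component over all genes outside the score held 35.8% of the variance. Its loadings were 0.53 in ONC2, 0.40 in CTR2, 0.16 in ONC1 and 0.12 in ONC3, and -0.54 in CTR4, -0.37 in ONC4, -0.29 in CTR3 and -0.01 in CTR1. Every high channel was thus above every low channel, with array 2 and array 4 at the extremes and CTR1 near 0. The second component, with 21.2%, placed every Cy3 channel above every Cy5 channel, which by the labels is every ONC above every CTR channel. Label and dye cannot be told apart here. ONC1, ONC3 and ONC4 were at 0.42 to 0.45, ONC2 at -0.01 and the Cy5 channels at -0.40 to -0.19. The scaled median absolute log2 difference between channels was 0.112 to 0.295 for the 6 pairs of high channels and 0.229 to 0.340 for the 6 pairs of low channels. Between a high and a low channel it was 0.233 to 0.398. The ranges of these distances overlapped. The 0.112 was that of ONC1 and ONC3, labeled on different arrays, and the next smallest of all pairs was 0.228, for ONC2 and ONC3. SDs over the high channels include the close pair of ONC1 and ONC3, and the cause of its closeness was not tested.

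CTR2 and ONC4, each alone with its label on its side, differed from their companions. Against ONC1, ONC2 and ONC3, CTR2 was outside their range and at least 2-fold higher for 26 genes and lower for 60. Among the highest were lens genes such as Cryaa, at 4.41 against a mean of 2.54, and among the lowest Basp1, at 2.01 against 5.19, with Cd74 and Isg15. Against CTR1, CTR3 and CTR4, ONC4 was higher for 87 genes and lower for 82. The largest of these were Tnnc1, at 1.86 against -2.0, and Rab5c, at -2.77 against 0.23, and neither is a marker of the lists above. A few genes counted as apart rested on a single channel: LOC103694341 was 0.40 in ONC4 against -3.70 to -2.87 elsewhere, and Enah was -4.69 in ONC1 against -1.90 to -1.30 elsewhere, with only 3 high channels well above background. Basp1, Tnnc1, Rab5c, LOC103694341 and Enah were chosen after their values were seen.

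The labels define their own comparison, ONC against CTR, which uses the same 8 channels. By limma, 81 of 16307 genes (0.497%) had an adjusted p under 0.05, 38 higher and 43 lower in ONC, and 3025 an unadjusted p under 0.05. With the array number as a replicate block it was 1254 genes, and with median scaling 3194, of which 2267 were higher and 927 lower in ONC. None of the 75 genes apart between high and low channels was called by label, 12 had an unadjusted p under 0.05, and the smallest adjusted p was 0.157 by limma. With median scaling 1 of them was called (adjusted p = 0.049 by limma). With the block 5 of them were called, Atf3, Ccnd2, Emp3, Gadd45g and Hspb1, all lower in ONC and named after their values were seen. No share among the 75 genes exceeded that over all 16307 genes, of which limma called 81, or 1254 with the block. Every gene apart has CTR2 and ONC4 on the side opposite their label mates, which widens its spread within labels by construction. The counts among the 75 genes therefore test nothing. Leaving out ONC2 gave 38 genes by limma, and leaving out any other single channel gave 0, with 2085 to 3252 at an unadjusted p under 0.05. At least 2-fold and with no overlap between labels were 5 genes higher and 3 lower in ONC. Without the 2-fold requirement, 2069 genes had no overlap between labels, beside 2179 between high and low channels.

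For the genes that separated the groups most, the label difference was the average of channels on either side. Slc17a6 was 1.79 higher in ONC on the log2 scale (adjusted p = 0.434 by limma), beside 3.76 between high and low channels. Nefh was 1.46 higher by label (adjusted p = 0.398 by limma), beside 2.89. Csrp3 was at -1.50 by label (adjusted p = 0.314 by limma), beside -2.58, and Gal at -0.91 (adjusted p = 0.509 by limma), beside -2.05. Isl1, a factor of bipolar and ganglion cells, showed the reverse: it was called by label (adjusted p = 0.0418 by limma), with 1.48 to 1.51 in the ONC and 0.73 to 0.98 in the CTR channels, but differed by only 0.36 between high and low channels. Isl1 thus followed the label or its dye, and Slc17a6 the marker score.

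With the label as a term in a least-squares fit, the high minus low difference of Slc17a6 was 3.82, that of Nefh 2.88, that of Csrp3 -2.44, that of Gal -2.13 and that of Cd74 -2.65. The same description within array 1 gave 3.40 for Nefh, -2.04 for Csrp3, -1.40 for Gal and -1.95 for Cd74. Within array 3 it gave 2.97, -2.85, -1.90 and -2.48, and between array 2 and array 4 it gave 2.60, -2.71, -2.46 and -2.34. With 8 samples and groups set by measured values, the number of arrays limits the precision of all these differences.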

How the data were processed

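RNA of 4 CTR and 4 ONC retinas was measured on 4 Agilent arrays with 60-mer probes, each with 44254 spots of which 1377 were controls. The authors deposited spot intensity values from the scanner software (Feature Extraction, 12.0.3.1 per the file headers and 11.1.19.1 per the labels): mean foreground, median background and a background-subtracted, LOWESS-normalized processed signal. The score used processed signals of unflagged spots. Elsewhere, spots with an outlier flag, or below 2 times background in any channel, were dropped, leaving 27371 spots of 18599 probes for 16307 genes. Background was subtracted, loess applied within arrays, channels centered on their medians, and replicate spots, then probes, averaged per gene. Between 66.8% (ONC4) and 79.4% (CTR1) of spots were well above background, and none was saturated.

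The label comparison used limma 3.58.1 (R 4.3.3, two-sided, Benjamini-Hochberg over all genes). It was tested on simulated data, and no result of that test is reported here. Python 3.11.15, numpy 2.4.6, pandas 2.3.3, scipy 1.17.1 and matplotlib 3.10.9 did the rest. The labels place equal replicate numbers on the same array, where deviations from label means correlated at 0.149, 0.549, 0.401 and 0.487. Genes were named by rule: in each list up to 6 with the largest difference without overlap (otherwise the 2 largest), the 12 largest in each direction, and cell type markers. Some genes of the rule and lists are not reported here. Of 544 list entries, 451 passed, 75 failed the filter and 18 were not found. Members and lists were chosen with earlier results of these data known. Alternatives covered background, scaling, filter, averaging, fold, score genes, array block, the test in the methods, and each sample left out.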

Additional observations from a re-analysis of the deposited data

Results flagged for a closer look

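Within the labels, a channel was looked for whose gap to the nearest of its label mates exceeded the critical value of Dixon's test for 4 samples, as a share of the range. Over 59 results and 118 groups of 4, 24 such channels were found, and chance marks about 1 in 20 groups of values that were not chosen for a difference. All 24 were CTR2 among the CTR channels or ONC4 among the ONC channels. This repeats the grouping, since the genes examined are mainly those of the score and those that differ most between its groups. The values describe that choice, test nothing, and cannot be read against that rate. For the marker score the share was 0.908 for CTR2 and 0.966 for ONC4.

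CTR2 stood apart in Nefm (0.893), Sncg (0.843), Slc17a6 (0.833), Scn2a (0.917), Ucn (0.849) and RT1-Da (0.843). ONC4 stood apart in the genes of the score, at 0.993 for Pou4f2, 0.973 for Nefm, 0.956 for Nefl and 0.985 for Sncg. It also did so in Slc17a6 (0.979), Nefh (0.836), Prph (0.975), Nell2 (0.925), Tmem163 (0.957) and Tppp3 (0.944). Among genes higher in the low channels, ONC4 stood apart in Csrp3 (0.856), RT1-Da (0.852), Ifi27l2b (0.845) and Tgfbi (0.882). The list medians in which it did so were those of RGC axon, surface and transmitter genes (0.853) and of the genes most lowered by the study (0.974).

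The control spots for transcripts of the labeling kit, which enter no comparison above, gave a steady pattern over arrays. For 10 such E1A transcripts, the log2 ratio of Cy3 over Cy5 ran from -3.41 to 3.42, and for no transcript did it vary between the 4 arrays by more than 0.60.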

How the results depend on the processing

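The 4 high channels were the same with loess-normalized values, with median scaling, with the median of the 4 genes, and with each gene left out of the score. The number of genes apart was 61 to 102 under the other background, scaling, filter and averaging settings, with 48 to 75 of the 75 genes shared. It was 334 at 1.5-fold and 23 at 3-fold, by construction, and 65 to 118 with a channel left out, highest without CTR1. Fewer channels make non-overlap easier to meet.

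The number of genes called by label was 81, and with the replicate block 1254. It was 21 with processed signals, 3194 with median scaling, 412 with Aquantile, 30 with normexp, 123 with spots well above background in all channels, 0 with normexp and no filter together (2338 unadjusted by limma), and 0 by the methods' t-test after adjustment (2682 before). With a channel left out it was 0 to 38, and limma then gave 2085 to 3252 genes at an unadjusted p under 0.05. The cause of these changes was not tested.

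The 28 single genes with alternatives kept their direction in processed signals, median scaling, Aquantile and normexp values. Several list medians changed sign. With median scaling, cornea and conjunctiva went to 0.04, oligodendrocyte to 0.07 and immediate early to 0.01, and with Aquantile, immediate early went to 0.02, bipolar to 0.01 and reference genes to 0.03. The cause was not tested. Dim genes depend on the background, Pou4f2 differing by 3.38, by 3.94 in processed signals and by 2.77 with normexp. The share of spots well above background was lowest in ONC4 (66.8%), which limits dim genes there most. The score itself was set by a few probes, the groups were set by measured values, and dye, label and array are not balanced over them.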
